A study of Mus musculus with 7 samples.

Results

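Narrow promoters that were open in every library were examined in progenitors of the mouse second heart field (SHF), together with the difference between promoters shared by a pair of genes and promoters of a single gene. Peaks with a -log10 q-value of at least 2 (q at most 0.01) were pooled from all 7 libraries and joined wherever they overlapped by 1 bp or more, giving 203618 regions on chromosomes 1 to 19. A member is a merged region with such a peak in all 7 libraries, in the window from 1000 bp upstream to 100 bp downstream of a RefSeq transcription start site (TSS), with no library's peak interval reaching 1500 bp. Of the 203618 regions, 22070 (10.8%) held a peak in all 7 libraries, 10924 of these overlapped a promoter window, and 10477 (5.15% of all regions) were members. The members were chosen by measured values, namely the q-value, the presence of a peak in each library and the interval length, so these are given below as a description only.

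The assay was ATAC-seq, in which a transposase cuts accessible DNA and adds sequencing adapters, so that fragment ends pile up where nucleosomes are absent or displaced. Most vertebrate promoters of genes that all cells use lie in CpG islands, which are stretches of DNA that escape methylation and therefore keep their CpG dinucleotides. Such promoters carry a nucleosome-depleted stretch over the start site in nearly all tissues, usually lack a TATA box and start transcription at several nearby bases. A bidirectional promoter lies between the start sites of a pair of genes transcribed away from each other, and this arrangement is well known for genes of DNA repair, mitochondria and the chaperonins.

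Cells were sorted at E9.5 from the dissected SHF region of pooled embryos of 2 mouse lines, and the labels give no mutation or treatment. The authors' methods, however, list the Hoxb1-GFP allele under the name of the *Hoxb1* mutant allele. They do not state how many copies the sorted embryos carried, and the Mef2c-Cre;RosatdT line is not described as carrying it. The Hoxb1-GFP line gave 2 GFP+ libraries (replicates 3 and 4), in which GFP marks Hoxb1-expressing cells of the posterior SHF, and 2 GFP- libraries (replicates 1 and 2). The Mef2c-Cre;RosatdT line gave 2 Tomato+ libraries (replicates 6 and 8) and 1 Tomato- library (replicate 7). Tomato is a lineage label, since Cre under a Mef2c enhancer of the SHF removes a stop signal once and the Rosa reporter then stays on in the descendants. The labels name the GFP- and Tomato- libraries only as negative for the reporter, so they were taken as the other cells of the same dissection, which hold several cell types. The replicate numbers are those that end the library titles and serve here only as names. The labels do not say which embryos went into which library, so the spread between libraries may be partly technical.

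The lists held 60806 to 73690 intervals with a q of at most 0.01 per library, and 14.2 to 17.2 members fell on every 100 of them. Tomato+ replicate 6 stood apart, as the fold enrichment of the members correlated with that of the other libraries at Spearman's rho of 0.722 to 0.758, against 0.797 to 0.841 for all other pairs (10477 regions, which are not replicates). The header of its peak list names the run YFP whereas its label gives the Mef2c-Cre reporter, so the identity of this library is in doubt, and the label was followed in every Tomato+ value below. Among 18 genes of the SHF and its neighbours, 8 had a narrow promoter open in all 7 libraries, among them *Isl1*, *Hoxb1*, *Mef2c*, *Aldh1a2*, *Fgf10* and *Eya1*. *Gata4* and *Osr1* had a promoter peak in at most 6 libraries, *Foxf1* in 5, *Hand2* in 3, *Nkx2-5* in 2, *Tbx1*, *Tbx5*, *Fgf8* and *Bmp4* in 1, and *Hand1* in none.

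The DNA itself shows how such promoters are built. The following 5 sequences lie between the start sites of bidirectional members and are written on the plus strand, with the minus-strand gene named first. They were picked, after their values were seen, to show a well-known shared promoter (*Hspd1* with *Hspe1*), 1 of the 10 pairs that ranked highest (*Ppwd1* with *Cenpk*), and pairs of mitochondrial ribosome, chaperonin, replication and histone genes. Capitals mark matches, on either strand, to short strings of known promoter factors. The string CCGGAAG stands for the ETS factors, and the CCAAT-box factor NFY has the strings CCAATCA and, as its other form, CCAATGA. The string GGGCGG stands for the SP and KLF factors, GCATGCGC for the factor NRF1 and AAGATGGCG for the factor YY1. The string TGACGTCA stands for the CREB and ATF factors, CACGTG for the E-box and TCTCGCGA for the factor BANP. The string ACTACAA stands for ZFP143 and TATAAA for the TATA box. The ETS and YY1 strings can share the bases AAG.
Hspd1/Hspe1: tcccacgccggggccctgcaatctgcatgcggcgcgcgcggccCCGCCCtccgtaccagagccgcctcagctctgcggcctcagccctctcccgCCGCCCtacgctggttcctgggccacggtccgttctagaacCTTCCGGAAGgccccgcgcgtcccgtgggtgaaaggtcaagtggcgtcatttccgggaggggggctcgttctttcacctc
Mrpl18/Tcp1: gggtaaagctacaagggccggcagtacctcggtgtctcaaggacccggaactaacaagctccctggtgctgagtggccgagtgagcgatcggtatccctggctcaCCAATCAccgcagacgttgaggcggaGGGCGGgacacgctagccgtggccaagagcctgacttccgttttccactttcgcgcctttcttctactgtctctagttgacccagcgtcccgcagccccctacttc
Ppwd1/Cenpk: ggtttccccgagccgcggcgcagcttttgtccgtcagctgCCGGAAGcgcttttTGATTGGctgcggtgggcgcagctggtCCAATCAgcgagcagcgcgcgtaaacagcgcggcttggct
Dbf4/Slc25a40: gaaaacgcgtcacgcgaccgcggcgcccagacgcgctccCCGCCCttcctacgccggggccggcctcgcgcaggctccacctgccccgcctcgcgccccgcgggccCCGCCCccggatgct
H2ac6/H2bc4: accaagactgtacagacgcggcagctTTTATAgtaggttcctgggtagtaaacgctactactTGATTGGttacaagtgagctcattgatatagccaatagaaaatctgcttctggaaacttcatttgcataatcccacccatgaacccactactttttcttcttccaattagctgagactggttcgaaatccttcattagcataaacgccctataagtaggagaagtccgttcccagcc
In GRCm38.p6 these run over chr1:55087933-55088147, chr17:12916092-12916328, chr13:104228845-104228965, chr5:8422717-8422837 and chr13:23683960-23684198, in the order printed, and each is the whole stretch between the paired start sites. *Hspd1* and *Hspe1* encode the mitochondrial chaperonin and its cap, and their 215 bp held 24 CpGs, 2 SP/KLF strings and 2 ETS strings on opposite strands that overlap in a palindrome. The 121 bp between *Ppwd1*, a spliceosomal cyclophilin, and *Cenpk*, a kinetochore subunit, held 15 CpGs with 1 ETS and 2 NFY strings. The 121 bp between *Dbf4*, which activates the Cdc7 kinase at replication origins, and *Slc25a40*, a mitochondrial carrier, held 22 CpGs at 81.0% GC and 2 SP/KLF strings. The histone pair was the most different, with 6 CpGs in 239 bp at 42.7% GC, 1 NFY string and a TATA box string at base 27, on the strand of *H2ac6*.

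For comparison, the next 2 sequences are the 150 bp upstream of the start site of single members, written in the direction of transcription. *Hibch*, an enzyme of valine breakdown, and *Cenpf*, a kinetochore protein, were among the 10 single members that ranked highest.
Hibch: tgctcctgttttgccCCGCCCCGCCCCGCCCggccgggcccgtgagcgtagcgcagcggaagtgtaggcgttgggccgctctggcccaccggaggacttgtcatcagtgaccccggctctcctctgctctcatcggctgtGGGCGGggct
Cenpf: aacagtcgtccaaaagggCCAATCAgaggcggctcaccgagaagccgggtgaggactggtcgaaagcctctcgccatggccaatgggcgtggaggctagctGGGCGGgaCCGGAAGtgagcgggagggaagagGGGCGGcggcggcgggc
These run over chr1:52844888-52845037 on the plus strand and chr1:189688087-189688236 on the minus strand of GRCm38.p6. *Hibch* held 4 SP/KLF strings, 3 of them in a row in which each shares a base with the next. *Cenpf* held 1 NFY, 1 ETS and 2 SP/KLF strings. A match is a run of letters and does not show that a factor was bound.

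Of the 10477 members, 1201 (11.5%, 95% Wilson interval 10.9% to 12.1%) were bidirectional, that is, their region overlapped the windows of a minus-strand and a plus-strand start site of different genes, head to head and at most 1000 bp apart. Single members, whose windows belonged to 1 gene, numbered 8945 (85.4%), and 331 had several genes in another arrangement, 290 of them with start sites on both strands. In 46 members all start sites belonged to small RNA genes. The 1201 bidirectional members stood for 1186 gene pairs, because 15 pairs were covered by 2 members each, among them *Gart* and *Son*, whose start sites lay 852 bp apart. The pairs joined coding with coding genes in 788 members, coding with noncoding genes in 409 and noncoding genes only in 4. On chromosome 10, 8.44% of the members were bidirectional and on chromosome 12, 14.4%, the lowest and highest of the 19 chromosomes.

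The bidirectional share was highest among promoters open in all libraries. It was 1.47% of 3595 promoter regions with a peak in 1 library, 1.96% to 4.84% of those with a peak in 2 to 6 and 11.8% of 10924 with a peak in all 7. The median of the longest interval was 240 bp in regions with a peak in 2 libraries, 562 bp with 6 and 878 bp with 7, and its part in the share was not tested. Among the 447 promoters open in all libraries in which some interval reached 1500 bp, 85 (19.02%, 15.7% to 22.9%) were bidirectional.

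Over the bidirectional members, paired start sites were close together, at a median of 145 bp (quartiles 76 and 271 bp). Of the 1201 bidirectional members, 415 had start sites at most 100 bp apart, 345 at 101 to 200 bp, 186 at 201 to 300 bp, 133 at 301 to 500 bp and 122 further apart. Open chromatin usually reached over both genes' start sites, as 1 interval covered both in all 7 libraries for 840 members (69.9%). This was the case for 95.6% of the intervals at pairs up to 100 bp apart and for 22.6% at pairs more than 500 bp apart. Median interval lengths were 679 to 797 bp over the libraries in these closest pairs and 786 to 921 bp at 301 to 500 bp apart, and they were shorter again, at 614 to 830 bp, in the widest pairs.

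**Figure D1:**
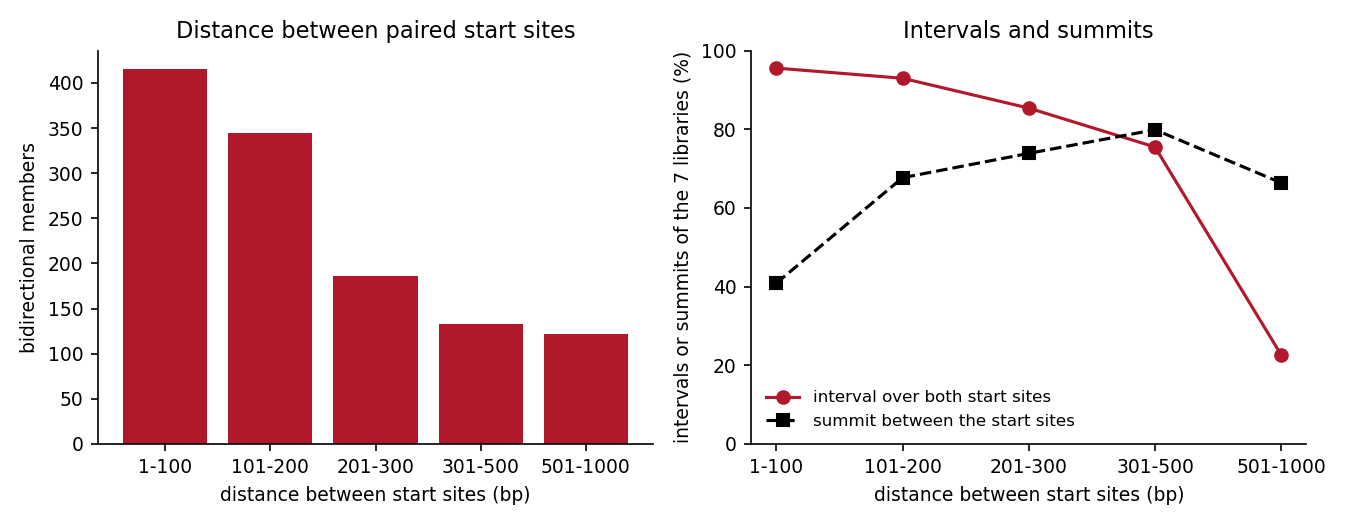
Left, number of bidirectional members (bars) by distance between the paired start sites in bp. Right, percent of the intervals of all 7 libraries that reach over both start sites (circles) and percent of summits that lie between them (squares), for the same distance bins. Intervals over both sites fall from 95.6% to 22.6%, while summits between the sites rise from 40.9% in the closest pairs to 79.9% at 301 to 500 bp and are at 66.4% beyond.

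The point of strongest signal, the summit, lay between the paired start sites in 57.3% (Tomato+ replicate 6) to 62.6% (Tomato- replicate 7) of the bidirectional members. In 382 of them (31.8%) it did so in all 7 libraries. Positions are given below relative to the start site, with negative values upstream. At single members the median summit position was -29 to -26 bp in the 7 libraries, and 60.9% to 63.3% of the summits were upstream. Single intervals reached over the start site in 86.5% to 91.4% of cases, and in all 7 libraries in 6768 members (75.7%). For 341 single members (3.81%) the nearest start site lay outside the merged region, so the open region did not include the gene's annotated start. Summits moved between libraries, with a median range of 162 bp within a member, and they stayed within 50 bp in 1656 members (15.8%).

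Bidirectional members were more enriched than single members in all 7 libraries. Fold enrichment is the deposited ratio of the pileup at the summit to the local background of the same library. The median in GFP+ replicate 3 was 7.06 in bidirectional and 6.36 in single members, and in GFP+ replicate 4 it was 6.91 and 6.22. In Tomato+ replicates 6 and 8 it was 6.29 against 5.68 and 7.44 against 6.31. In GFP- replicates 1 and 2 it was 6.31 against 5.68 and 6.90 against 6.02, and in Tomato- replicate 7 it was 7.48 against 6.34. The lower bidirectional medians, those of Tomato+ replicate 6 and GFP- replicate 1, were below the highest single median, so the difference holds within a library and not across libraries. The log2 ratio of bidirectional to single medians was 0.18 ± 0.04 (SD, n = 7 libraries), a ratio of 1.108 to 1.18, and it was above 0 in 7 of 7 libraries (exact two-sided sign-flip permutation test over libraries, p = 0.0156, the smallest p that 7 libraries can give). The size of the log2 ratio moved with the q-value that chose the members, to 0.11 at a -log10 q of at least 4 and 0.27 with all deposited peaks, and it was 0.20 without Tomato+ replicate 6. The test says that the libraries share the direction, since they share the same regions, and within each library the quartiles of both classes overlapped widely.

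**Figure D2:**
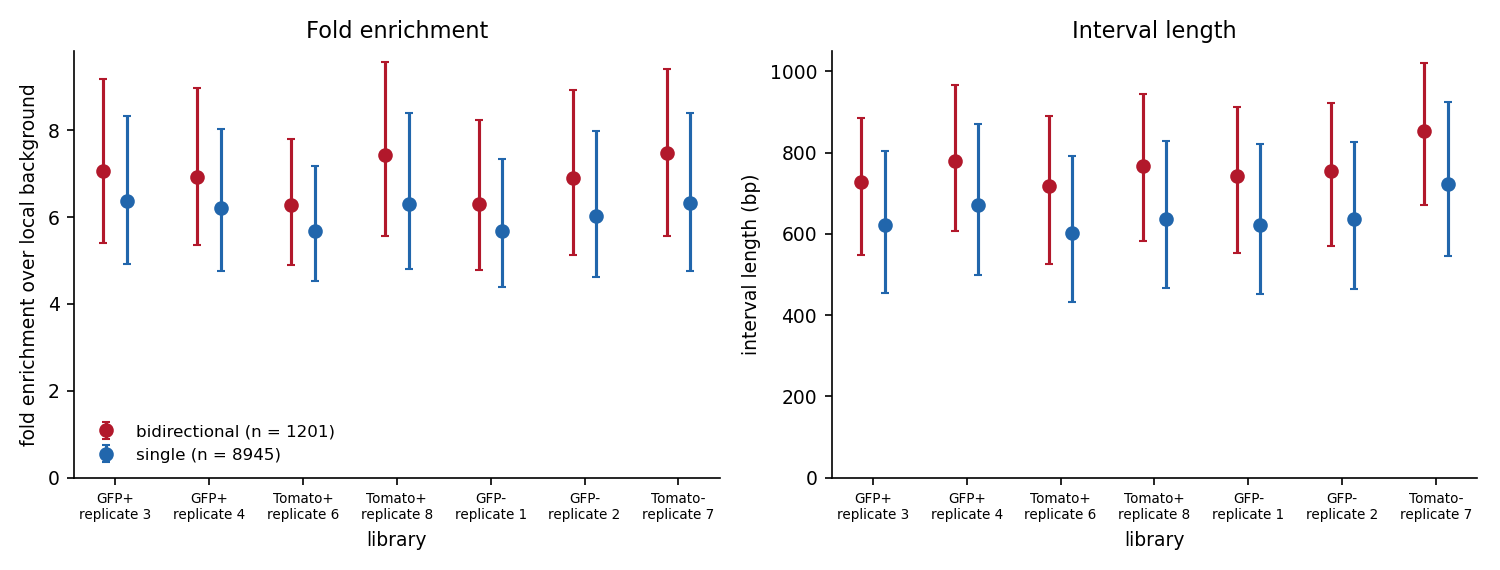
Fold enrichment over local background (left) and interval length in bp (right) in each of the 7 libraries for the 1201 bidirectional (red) and 8945 single (blue) members. Points are medians over regions and bars the quartiles. The red median lies above the blue one in every library, by a ratio of 1.108 to 1.18 for fold enrichment.

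The difference was present also within each tertile of the members by observed over expected CpG. The log2 ratio was 0.18 ± 0.05 in the lowest tertile, 0.22 ± 0.03 in the middle tertile and 0.125 ± 0.03 in the highest tertile (SD, n = 7 libraries each, exact sign-flip permutation test, p = 0.0156 in each of the 3, Benjamini-Hochberg adjusted p = 0.0156). That is again the smallest p that 7 libraries can give. It says only that libraries measured over the same regions share the direction. Among the 840 bidirectional and 6768 single members whose intervals reached over their start sites in all libraries, a comparison added after seeing the data, the log2 ratio was 0.19 ± 0.03. The local background was also higher at bidirectional members, at medians of 1.60 to 2.001 over the libraries against 1.49 to 1.78 at single members, and its part in the difference was not tested. Bidirectional intervals were longer, with medians of 718 to 853 bp against 603 to 723 bp, which is given without a test because the interval length chose the members. By distance, the median fold was 6.06 to 7.24 over the libraries for pairs up to 100 bp apart, 6.61 to 8.08 at 201 to 300 bp and 5.12 to 6.15 beyond 500 bp, against 5.68 to 6.36 at single members. Pairs of coding with noncoding genes (6.08 to 7.35) were close to coding pairs (6.35 to 7.55).

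Both classes were rich in CpG. In 300 bp around the median summit, the observed over expected CpG ratio had a median of 0.871 in bidirectional and 0.828 in single members, and of 0.237 in the 11146 regions open in all libraries away from promoters. GC content went the other way, with 65.7% in bidirectional and 67.3% in single members. A ratio of at least 0.6 with a GC content of at least 55%, the usual mark of a CpG island, was met by 89.8% of bidirectional, 84.1% of single and 13.2% of distal regions. Members with little CpG, at a ratio under 0.4, numbered 9 among bidirectional (0.749%) and 319 among single members (3.57%).

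Around the start site the classes had different shapes. In the 200 bp downstream, single members held 9.87 CpGs per 100 bp and bidirectional members 8.23, whereas in the 200 bp upstream single members held 7.84 and bidirectional members 9.03. CpG density therefore fell off upstream of single start sites and was more even on both sides of paired ones, where the partner gene begins upstream by definition. The GC skew, the excess of G over C on the strand of the transcript, was 0.0886 downstream of bidirectional and 0.0713 downstream of single start sites. Upstream it was -0.0265 in bidirectional members, where the partner is read from the other strand, and 0.00177 in single members.

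**Figure D3:**
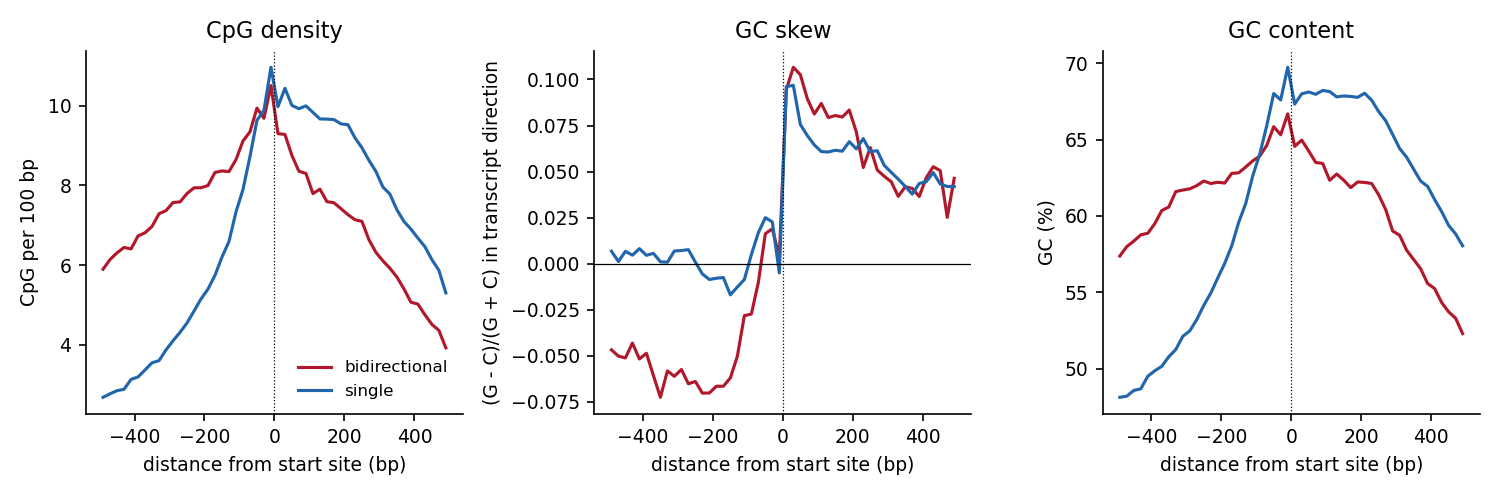
CpG density (CpG per 100 bp, left), GC skew in the direction of the transcript (middle) and GC content (%, right) against distance from the start site in bp, averaged over 2402 start sites of bidirectional (red) and 8945 of single (blue) members. In the 200 bp upstream CpG density is 9.03 per 100 bp for red and 7.84 for blue, and the skew is negative for red.

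TATA boxes were rare. The string TATAAA, read in the direction of the transcript and lying 20 to 40 bp upstream, was found at 13 of 2402 start sites of bidirectional members (0.541%, 0.317% to 0.924%), at 82 of 8945 of single members (0.917%, 0.739% to 1.14%) and at 688 of all 30219 RefSeq start sites (2.28%). The intervals cover counting error only, here and below.

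Strings of factors that bind promoters of widely used genes were more frequent in bidirectional than in single members, with the widest gap in percentage points for ETS factors. CCGGAAG was in the 300 bp around the summit of 331 bidirectional members (27.6%, 25.1% to 30.2%) and of 1567 single members (17.5%, 16.7% to 18.3%), against 2.86% of distal regions and 8.86% of all 32851 RefSeq promoter sequences of the same length. Unlike the members, those promoter sequences were not placed by summits. NFY, the CCAAT-box factor, followed with 21.1% and 15.1%, against 11.6% of all promoters. BANP, which binds unmethylated CGCG-containing sites, had its string in 3.58% and 1.96%, against 0.995% of all promoters and 0.135% of distal regions. The Wilson intervals of the classes did not overlap for these 3 factors, and by a narrow margin not for NRF1 and ZFP143 either. Regions are not replicates, and no test was run on the strings. With paired start sites a median of 145 bp apart, the 300 bp of a bidirectional member can hold the start sites of both genes. The part of this in the gaps here and below was not tested.

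For other factors the gaps in percentage points were smaller than those for ETS and NFY. NRF1, which drives nuclear genes for mitochondria, had 6.99% (5.69% to 8.58%) in bidirectional and 5.17% (4.73% to 5.64%) in single members, and ZFP143 had 5.16% and 3.60%, against 2.71% and 3.24% of all promoters. CREB/ATF had 4.75% and 3.47%, YY1 4.33% and 3.54%, the E-box 11.0% and 10.3%, and the GC box of SP/KLF factors, the most frequent string, 79.2% and 76.8%. Over all promoters these 4 were at 1.79%, 1.40%, 7.15% and 35.7%. Of 9 such factors at least 3 were matched in 14.8% of bidirectional and 8.55% of single members, and none in 6.66% and 11.1%. RFX (GTTGCCA) did not follow this order, with 3.497% in bidirectional and 3.78% in single members, against 4.38% of all promoters.

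**Figure D4:**
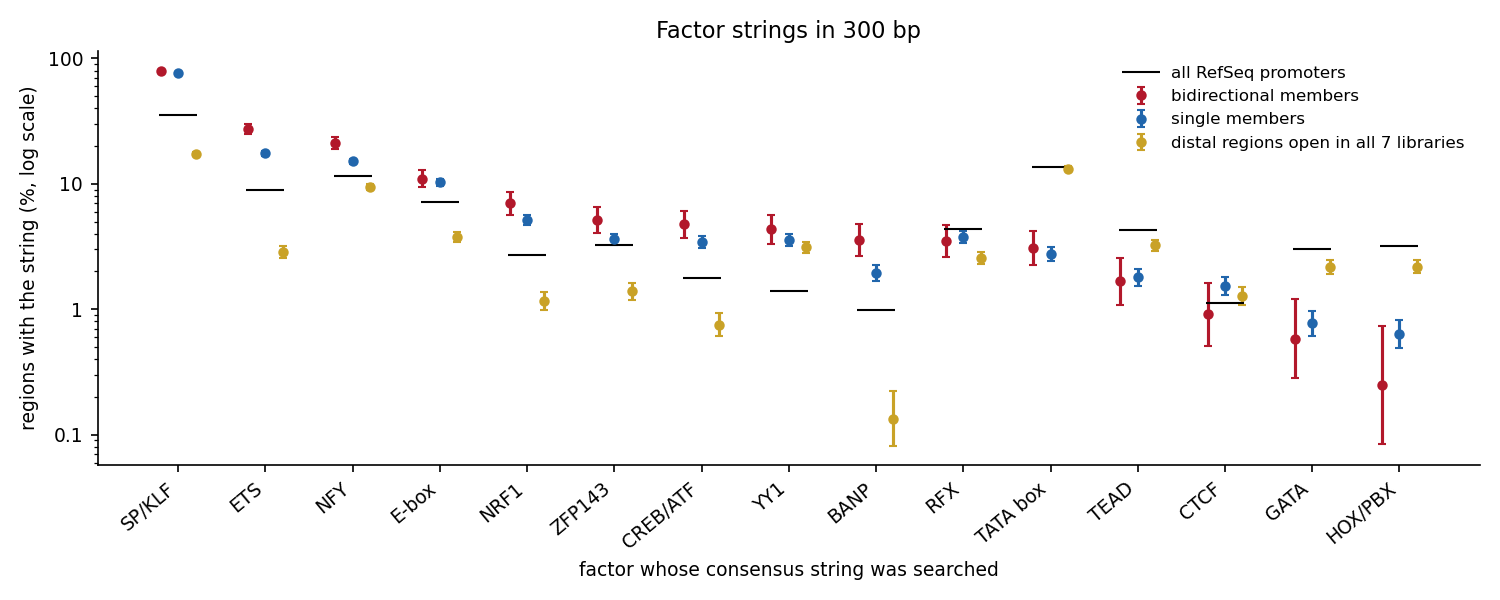
Percent of regions (log scale) with a consensus string of each factor in 300 bp, for bidirectional members (red), single members (blue) and distal regions open in all 7 libraries (gold), with 95% Wilson intervals, and for all RefSeq promoters (black bars). ETS strings were in 27.6%, 17.5%, 2.86% and 8.86%, while GATA, HOX/PBX and TATA strings were less frequent in members than in distal regions.

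The ETS gap was present in each CpG tertile, at 20.8% against 13.5% in the lowest, 29.6% against 18.4% in the middle and 29.8% against 21% in the highest. The NFY gap was 22.9% against 18.2%, 22.9% against 15.3% and 18.4% against 11.5%. The SP/KLF string was at 77.5% against 67.1% in the lowest tertile, 81.3% against 80.9% in the middle and 78.3% against 82.8% in the highest, so its order turned. That of ZFP143 turned too, from 9.51% against 4.39% in the lowest to 2.43% against 2.77% in the highest tertile, where NRF1 was at 7.69% against 7.51%. Strings of developmental factors were scarce in both classes. The HOX/PBX string TGATTNAT was in 3 bidirectional (0.250%) and 57 single members (0.637%) against 2.19% of distal regions, and the GATA string AGATAAG in 0.583% and 0.771% against 2.18%. All RefSeq promoters held them in 3.22% and 3.04%. TEAD (TGGAATG) was at 1.67% and 1.80%, against 4.29% of all promoters. Members had a median GC content of 67% against 50% in distal regions, and the part of base composition in these shares was not tested.

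The strings sat at different places along the promoter. In 200 bp on either side of single start sites, the NFY string had its median position at -60.5 bp and 87.4% of matches were upstream. The ETS string was centred nearer the start site, at a median of -9.5 bp, with quartiles at -56.8 bp and 22.8 bp. YY1 was the exception, with a median at 30.5 bp downstream, inside the transcript, and 83.2% of its matches on the strand of the transcript, against 52.9% for ETS and 50.9% for NFY. At bidirectional start sites the ETS median was at -24.5 bp and that of NFY at -63.5 bp, while YY1 was on the strand of the transcript in 61.4% of its 132 matches. Paired start sites lay a median of 145 bp apart, so the same match could be counted from both, on opposite strands. Positions and strand shares at bidirectional start sites are therefore not comparable with those at single start sites.

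Enrichment differed with some of the strings. Members with the NFY string had median folds of 6.81 to 7.999 over the libraries and those without it 5.56 to 6.25, and the ETS string went with 6.10 to 7.16 against 5.65 to 6.33. For both, members with the string were higher in 7 of 7 libraries. The same held for the NRF1, YY1, SP/KLF, CREB/ATF, E-box, BANP, ZFP143 and GATA strings. All libraries were measured over the same regions, so such counts are not independent. The TATA box string anywhere in the window went with lower folds, 5.26 to 5.90 against 5.74 to 6.48, in all 7 libraries. So did the TEAD string, at 5.405 to 6.19 against 5.73 to 6.47. For HOX/PBX the members with the string were higher in 6 of 7 libraries, and for RFX and CTCF in only 3 of 7. GC content differed alongside, at a median of 63.3% with and 67.7% without the NFY string, and its part was not tested.

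The lists of genes that all cells use were mostly members. Of 20021 protein-coding genes, 10716 (53.5%) had one, and 1952 of these (18.2%) shared a bidirectional member, which counts both genes of a pair. Of 80 DNA repair genes 79 had a narrow shared promoter, as did 36 of 37 aminoacyl-tRNA synthetases, 41 of 43 genes for subunits and assembly factors of complex I, 52 of 55 replication genes, 64 of 69 splicing factors, 63 of 69 chaperonins and heat shock proteins and 28 of 31 Mediator subunits. Cytosolic ribosomal proteins followed with 67 of 76, the proteasome with 33 of 38, mitochondrial ribosomal proteins with 67 of 78 and RNA polymerase subunits with 25 of 29. Since members had to be open in all libraries, this describes the selection and was not tested. None of 1097 olfactory receptor genes had one, 34 had a promoter peak in some library and 1063 in none. Of 36 heart field factors 21 had one, and of 23 genes of the sarcomere and natriuretic peptides 5.

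The lists differed in how often the promoter was shared. Among genes with a narrow shared promoter, the bidirectional share was 48.0% of the 25 for RNA polymerase subunits, 43.1% of the 51 for replication-dependent histones, 40.3% of the 67 for mitochondrial ribosomal proteins, 39.0% of the 41 for complex I and 36.7% of the 79 for DNA repair. It was 19.4% for the 67 cytosolic ribosomal protein genes and 18.2% for the 33 proteasome genes, next to 18.2% over all coding genes. *Zfp* zinc finger genes were lowest, with 25 of 299 (8.36%), and heart field factors had 2 of 21.

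**Figure D5:**
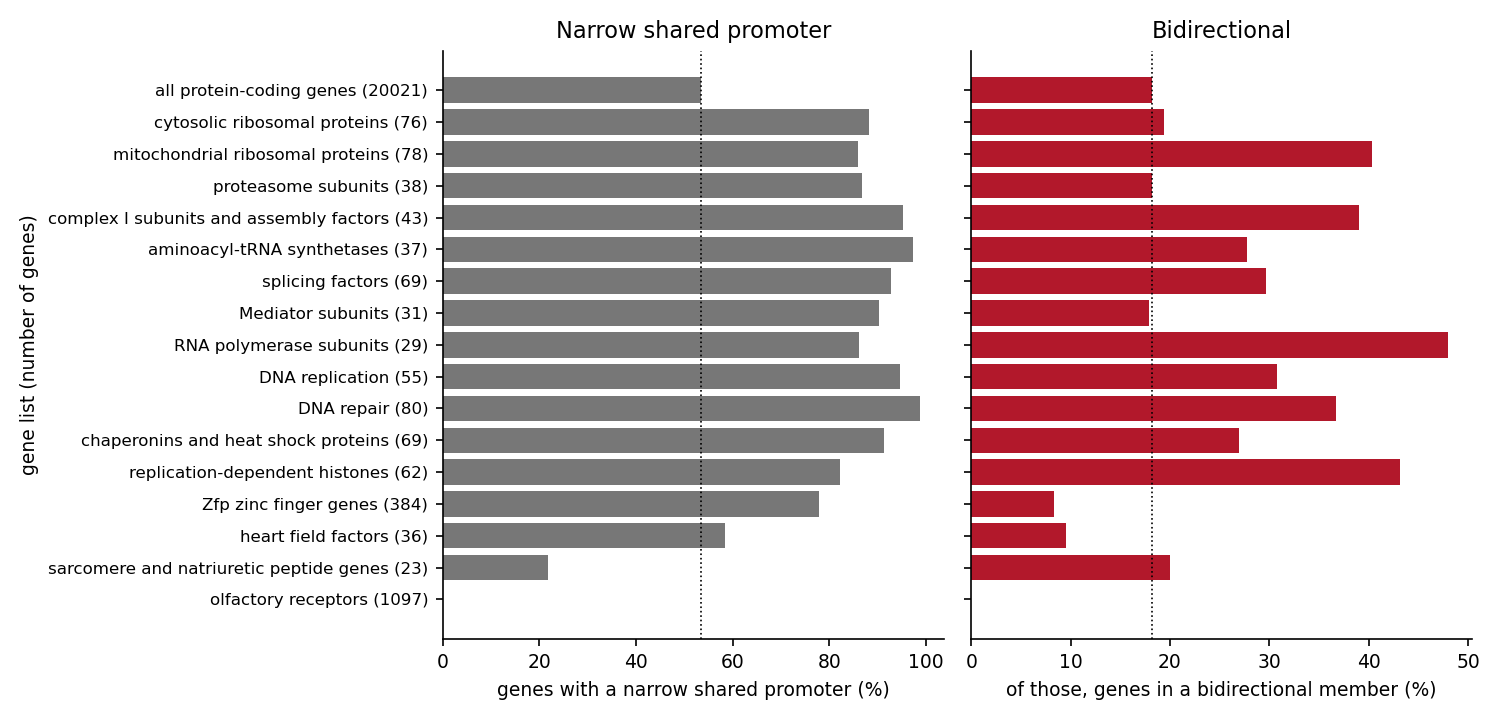
Percent of the genes of each list with a narrow promoter open in all 7 libraries (left) and, of those, percent in a bidirectional member (right), with the number of genes in brackets and the values for all protein-coding genes as dotted lines (53.5% and 18.2%). Olfactory receptors are at 0 on the left and have no value on the right.

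Levels are given below also as ranks, in percent from the top among the 22070 regions open in all libraries. A small percentage is a strong peak and is called a high rank, and libraries can be set side by side. The median member of the DNA repair list ranked at 34.4%, that of the aminoacyl-tRNA synthetases at 37.7% and of the replication genes at 37.8%, against 50.4% over all coding genes with a narrow shared promoter. Cytosolic ribosomal protein genes ranked lower, at 63.7%, and histone genes and heart field factors lowest of these lists, at 71.7% and 71.4%.

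Among bidirectional members, that of *Gm51663* and *Kifap3*, which encodes a kinesin-associated protein, ranked highest in its weakest library. Its fold enrichment was 20.3 and 16.3 in GFP+, 14.5 and 18.9 in Tomato+, 16.0 and 18.1 in GFP- and 17.8 in Tomato- cells, with start sites 43 bp apart. All 7 ranks were between 1.93% and 5.66%, so that the peak was strong in every sorted population. The promoter of *Nsun6*, an RNA methyltransferase, and *Arl5b*, a small GTPase, followed with folds of 16.5 and 19.4 in GFP+, 13.6 and 16.6 in Tomato+, 13.9 and 17.4 in GFP- and 16.5 in Tomato- cells. The other 8 of the first 10 were *Sugct* with *Mplkip*, *Atp7b* with *Alg11*, *Hsd17b7* with *3110045C21Rik*, *Elp4* with *Immp1l*, *Ppwd1* with *Cenpk*, *Gm10373* with *Emc2*, *Kbtbd8os* with *Kbtbd8* and *Gm34121* with *Herc2*. Their lowest rank in any library was 10.9%.

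The *Ppwd1* and *Cenpk* promoter, whose NFY and ETS strings are printed above, had folds of 13.5 and 14.7 in GFP+, 11.2 and 15.3 in Tomato+, 14.5 and 14.2 in GFP- and 12.5 in Tomato- cells. Tomato+ replicate 6 was the lowest of the 7. It had the lowest fold in 7 of the first 10 bidirectional members, those of *Kifap3*, *Arl5b*, *Mplkip*, *Alg11*, *Cenpk*, *Kbtbd8* and *Herc2*. This library also had the lowest median fold over all members, 5.73 against 5.76 to 6.46 in the others. The share of all members in which it was lowest was not counted.

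Among single members *Gm13290*, a predicted gene, ranked highest, with folds of 24.4 and 26.4 in GFP+, 19.9 and 26.1 in Tomato+, 24.99 and 22.3 in GFP- and 24.8 in Tomato- cells. *Hibch* followed with 16.9 and 19.9, 14.9 and 19.1, 15.3 and 19.7, and 19.7, in the same order. The next 8 were *Stk3*, a kinase of the Hippo pathway, *Otud6b*, a deubiquitinase, *Ralgapa2*, *Cenpf*, *Dsel*, *Wdr19*, a part of the intraflagellar transport machinery, *Depdc1a* and *E4f1*. The median summit of *E4f1* was at -982 bp from the start site, in sequence with an observed over expected CpG of 0.232, so that this member lies upstream of the gene. The other 9 had their median summit between -243 bp (*Ralgapa2*) and 95 bp (*Gm13290*).

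Of 30 gene pairs written down as textbook or likely divergent neighbours, 11 were head to head within 1000 bp in the annotation and 6 had overlapping start sites. Bidirectional members covered 10 of the 30. *Hspd1* and *Hspe1* had 10.7 and 10.7 in GFP+, 7.14 and 9.92 in Tomato+, 6.54 and 7.34 in GFP- and 8.66 in Tomato- cells, and their intervals were long, at 1154 to 1337 bp. The GFP+ libraries were the highest of the 7 there and the GFP- libraries were among the lowest 3.

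*Mcm4*, a subunit of the replicative helicase, and *Prkdc*, the catalytic subunit of DNA-dependent protein kinase, lay 466 bp apart and ranged from 6.57 (Tomato+ replicate 6) through a median of 9.66 to 11.95 (GFP+ replicate 3). *Fen1*, a flap endonuclease, and *Tmem258* had the weakest of these 10 bidirectional members, at 3.29 to 4.37, with ranks of 79.7% to 96.5% in the 7 libraries. A further 6 pairs were members of another arrangement. In 14 no member reached over both genes, and most of these pairs were not head to head within 1000 bp in the annotation. The only head-to-head pair among them was *Hand2* with *Hand2os1*, 124 bp apart, whose promoters had peaks in only some libraries.

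Among the highest-ranked members of the gene lists, *Mrpl18*, of the mitochondrial ribosome, and *Tcp1*, a chaperonin subunit, shared a promoter with folds of 11.2 and 12.6 in GFP+, 11.6 and 14.8 in Tomato+, 12.3 and 12.7 in GFP- and 14.0 in Tomato- cells. *Dbf4* and *Slc25a40* had 11.2 and 15.5, 11.6 and 12.7, 10.7 and 14.0, and 13.5, in the same order. In neither did all libraries of a sorted population stand above all others.

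Other pairs joined genes of different machineries. *Mrpl32* of the mitochondrial ribosome and *Psma2* of the proteasome shared a promoter with folds of 9.13 to 16.6 over the 7 libraries, *Orc3* of the origin recognition complex and *Rars2*, a mitochondrial arginyl-tRNA synthetase, had start sites 15 bp apart and folds of 8.36 to 13.2, and *Mrpl47* and *Ndufb5* of complex I had 7.07 to 10.8. *Rpa3*, a subunit of the single-strand binding protein RPA, and *Umad1* had 10.03 to 16.9. The histone pair *H2ac6* and *H2bc4* had 6.70 to 8.03, a narrower range.

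Heart field factors among the members varied between libraries. *Sema3c*, a secreted guidance protein of the outflow tract, had 12.4 and 14.7 in GFP+, 6.24 and 15.5 in Tomato+, 12.04 and 9.84 in GFP- and 9.02 in Tomato- cells. The Tomato+ libraries were thus its lowest and highest values, and GFP+ and Tomato+ overlapped. *Fgf10*, a growth factor of the SHF, had 4.66 to 7.86, the highest in GFP+ replicate 3.

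Interval lengths at the limit of 1500 bp were continuous. The 3 members just inside it were *Mob3b* and *Rbpms*, whose longest interval was 1499 bp, and *Tmeff2* with 1498 bp. The 3 regions just outside were *Cadm1* and *Bambi* with 1500 bp and *Elp5* with *Ctdnep1* with 1501 bp, so that these last were a bidirectional promoter left out by 2 bp. At *Cadm1* the other 6 libraries had intervals of 689 to 1235 bp, and the limit was reached in Tomato+ replicate 8 alone. The narrowest bidirectional member was that of *Gm13822* and *Oasl1*, at 172 to 253 bp in 7 libraries with start sites 979 bp apart. The next 4 were *Urod* with *Hectd3*, *4833438C02Rik* with *Nfkb2*, *Usp5* with *Cdca3* and *2610316D01Rik* with *Pcdh10*, with longest intervals of 330 to 368 bp. Among the 5 narrowest single members, 2 regions lay at *Rn5s*, the 5S ribosomal RNA gene, which is present in many copies so that reads cannot be placed with certainty, and 1 at *Gm23284*. The others were the sperm genes *Prm2* and *Pfn3*, with longest intervals of 147 and 169 bp.

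The comparison the study was made for is that of GFP+ with Tomato+ cells. With 2 libraries against 2 a permutation test cannot reach a p of 0.05, and no model was fitted to these peak lists. Members were counted in which both libraries of 1 group ranked above both of the other. GFP+ was above Tomato+ in 2576 members (24.6%), against 19.6% of all regions open in all libraries and 14.7% of the distal ones. Tomato+ was above GFP+ in 1230 members (11.7%), against 18.8% of all such regions and 26.0% of the distal ones. Bidirectional members (24.15% and 12.7%) and single members (24.7% and 11.6%) were close to each other in both directions.

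These shares went with a shift of whole libraries. The median member ranked at 46.9% in GFP+ replicate 3 and 47.5% in GFP+ replicate 4, at 52.6% in Tomato+ replicate 6 and 50.01% in Tomato+ replicate 8, with GFP- at 52.3% and 49.3% and Tomato- at 49.0%. Ranks within a library have a fixed sum, so a lower rank of promoters means a higher rank of distal regions. Without Tomato+ replicate 6, GFP+ was above Tomato+ in 39.5% of members against 35.4% of all shared regions, and Tomato+ above GFP+ in 27.8% against 34.2%, where 1 library stands for the Tomato+ cells.

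The widest gaps in favour of GFP+ were at the promoters of *Coa3*, a cytochrome oxidase assembly factor, with *Cntd1*, and of *Ndufs1* of complex I with *Eef1b2*, followed by *Boll*, *Dennd2a* and *Fstl5*. The folds of *Coa3* and *Cntd1* were 6.83 and 6.52 in GFP+, 3.11 and 3.91 in Tomato+, 5.06 and 5.29 in GFP- and 6.35 in Tomato- cells. The Tomato+ libraries were the lowest 2 of 7. *Ndufs1* and *Eef1b2*, 9 bp apart, had 6.56 and 7.03 in GFP+, 3.75 and 3.86 in Tomato+, 3.45 and 5.60 in GFP- and 5.16 in Tomato- cells, so that GFP+ was the highest. *Fstl5* had 8.13 and 12.01 in GFP+, 4.93 and 4.25 in Tomato+, 8.81 and 8.96 in GFP- and 4.32 in Tomato- cells. There both GFP+ and GFP- libraries were above all 3 of the Mef2c-Cre line, and *Boll* showed the same order.

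In favour of Tomato+ the widest gaps were at *Zfp169* with *A830005F24Rik*, *Ublcp1*, *Lmna*, *Mab21l3* and *Psme1*. *Lmna*, which encodes lamins A and C, had 3.82 and 4.40 in GFP+, 6.65 and 8.33 in Tomato+, 4.71 and 4.96 in GFP- and 7.59 in Tomato- cells. *Zfp169* with its noncoding partner had 4.22 and 4.003 in GFP+, 7.57 and 8.58 in Tomato+, 5.24 and 4.07 in GFP- and 8.55 in Tomato- cells. In both, the Tomato- library lay between the Tomato+ libraries, and all 3 libraries of the Mef2c-Cre line were above all 4 of the Hoxb1-GFP line. *Psme1*, a proteasome activator subunit, had 3.49 and 3.43 in GFP+, 5.59 and 6.78 in Tomato+, 3.81 and 3.92 in GFP- and 4.69 in Tomato- cells, with the Tomato+ libraries highest. The line, the sort and the library preparation cannot be told apart where lines are compared.

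All 4 sort-positive libraries ranked above all 3 sort-negative ones in 302 members (2.88%, against 2.69% of all shared regions), and below them in 241 (2.3%, against 2.55%). These shares were close to those of all regions. The widest gaps were at *Impdh1*, an enzyme of guanine nucleotide synthesis, *Hebp2*, *AU041133*, *Icosl* and *Rbbp9*. *Hebp2* had 11.6 and 12.3 in GFP+ and 10.1 and 9.13 in Tomato+, against 6.25 and 5.17 in GFP- and 6.77 in Tomato- cells. In the other direction they were at *Dohh* with *Gm48551*, *Mbnl1*, a splicing regulator, *Ptms*, *Rapgef1* and *Snrnp27*. *Mbnl1* had 4.35 and 5.18 in GFP+ and 4.69 and 5.64 in Tomato+, against 6.99 and 7.93 in GFP- and 7.02 in Tomato- cells. In bulk libraries, fewer cells with an open promoter and less opening per cell cannot be told apart.

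The rank of a member varied between libraries by a median range of 27.6 percentage points in bidirectional and 30.5 in single members (median SD 9.92 and 11.0), close to the 30.9 of distal regions.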

How the data were processed

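Genomic DNA of 7 ATAC-seq libraries was analysed from the peak lists of each library. Alignment to GRCm38 was done by the authors with SNAP, followed by removal of duplicates, improper pairs and blacklisted regions and by peak calling in each library with MACS2 (2.1.1 per the submitters' notes, 2.1.0.20150731 in the 1 header kept, with a p limit of 0.01, no control, a shift of 37 bp and an extension of 73 bp). The deposited pileup is a coverage signal that is not scaled to depth. The deposited fold enrichment is a ratio of pileup to local background. Significance was deposited as a -log10 p-value and, after adjustment, a -log10 q-value, which grow with depth, and the number of reads over a common set of regions was not used here. Summits of 1 interval were collapsed to that with the smallest p. Ends were shifted towards 3', so the 73 bp windows are not centred on the transposase cuts, and summits and interval ends are displaced accordingly.

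Peaks were merged and classed by 30219 start sites of 43783 curated RefSeq transcripts (GRCm38.p6), small RNA genes being used for classing only where no other gene was present. Each region took the peak with the highest fold in each library. CpG, GC and strings (both strands) were read in 300 bp around the median summit, with RefSeq promoters of the same length for comparison. These were 32851 sequences of 27025 genes, a different set from the 30219 start sites, and were not placed by summits. The only test was the exact sign-flip permutation over libraries, checked together with merging and classing on simulated intervals. The members, gene lists and pairs were chosen with earlier results of these data known. Named were the 10 highest-ranked members of each class, known pairs, 2 to 4 examples of each list, regions next to the length limit, the 5 narrowest and the 5 widest gaps per direction, and some of these are not reported here. Python 3.11.15, numpy 2.4.6, pandas 2.3.3, statsmodels 0.14.6, pysam 0.24.0 and matplotlib 3.10.9 were used.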

Additional observations from a re-analysis of the deposited data

Results flagged for a closer look

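On chromosome X, which was outside the regions described, 330 narrow promoters were open in all 7 libraries, and 27 of them (8.18%, 95% Wilson interval 5.68% to 11.6%) were bidirectional.

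The members with the 5 widest gaps per direction between GFP+ and Tomato+ were looked at. At 5 of these members, the sort-positive libraries moved away from the sort-negative ones in opposite directions in the mouse lines, every library included. The difference between the lines was not tested. The members had been chosen for a gap between GFP+ and Tomato+, which favours such opposite moves, and the share over all members was not counted. At *Coa3* with *Cntd1* sorted cells ranked 19.2 percentage points higher in the Hoxb1-GFP line and 43.2 points lower than the Tomato- library in the other line, a difference of 62.4 points. The difference was 54.9 points at *Ndufs1* with *Eef1b2* and 52.3 at *Dennd2a*. It went the other way at *Ublcp1*, by -56.4 points, and at *Psme1*, by -33.5 points. The Tomato line has 1 sort-negative library.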

How the results depend on the processing

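The number of members was 7198 (limit of 1000 bp) to 12509 (all deposited peaks) over 15 alternatives, always within 1.5 times of 10477. The log2 ratio of bidirectional to single fold was above 0 and past the test in the alternatives run, from 0.11 (-log10 q of at least 4) to 0.27 (all deposited peaks), and so were the difference in rank, 10.6 percentage points, and the log2 ratio of the pileup, 0.29. In each the test speaks only to the shared direction of libraries measured over the same regions. The bidirectional share moved to 12.7% at a -log10 q of at least 4, 10.3% with all deposited peaks, 7.70% with coding transcripts only, 9.45% at a limit of 1000 bp and 10.3% for pairs up to 500 bp apart. The CpG difference of 0.0458 moved to 0.0596 with all deposited peaks and 0.0537 for pairs up to 500 bp apart. By rank of the pileup, 22.5% of members had GFP+ above Tomato+ (20.15% of all shared regions) and 15.4% the reverse (21.1%). Leaving out 1 of these 4 libraries, an alternative chosen after seeing the data, gave 39.5% to 47.0% (34.2% to 37.2% of all shared regions) and 24.6% to 27.8% (32.9% to 35.7%), since fewer libraries have to be in order. No paired analysis was made because the labels do not say which libraries came from the same embryos. Peak lists hold only what was called, so a weak promoter peak in a library may have been missed, and intervals cover counting error only.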

Other observations

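The 319 single members with an observed over expected CpG under 0.4 were looked at after their values had been seen. Among them 23 (7.21%) were promoters of *Zfp* zinc finger genes, against 254 of the other 8626 single members (2.945%). They included *Zfp53* and *Zfp971*, the highest-ranked of the *Zfp* list, with folds of 12.02 to 14.3 and 11.6 to 20.7 over the 7 libraries. The CpG-poor members had median folds of 4.72 to 5.30 over the libraries and median lengths of 412 to 445 bp, against 5.70 to 6.41 and 609 to 730 bp in the other single members. Their intervals reached over the start site in all 7 libraries in 53.0% of cases, against 76.5%, and their median summit lay 85 bp from the start site, against 66 bp.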
